A study of Mus musculus with 8 samples.

Results

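Catspere1, Catspere2, Dnah6, Cfap54 and Ulk4, 5 of the 32285 genes counted, are sperm flagellum and cilium genes whose RNA differed between inbred mouse strains in striatal projection neurons. They were chosen by the strong strain differences of their own counts in those neurons, so their levels there are a description without a test. The striatum of 32 mice aged 12 weeks was profiled by single-nucleus multiome sequencing, which reads RNA and open chromatin from the same nucleus, and 55672 nuclei in 18 clusters carried the authors' annotation. There were 4 mice of each of 8 strains: A/J, 129S1/SvImJ, NOD/ShiLtJ, NZO/HlLtJ, CAST/EiJ, PWK/PhJ, WSB/EiJ and a C57BL/6 strain, written C57BL/6J in the study design and C57BL_6NJ in the table of nuclei. The labels used here name no treatment and no engineered allele. Nuclei of 8 mice, 1 per strain, were pooled in each of 4 batches, and every nucleus was assigned to its strain by its sequence variants. A mouse is therefore a strain within a batch. Each batch held 4 males and 4 females, and the sex of a single mouse was not used here.

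A beating cilium or sperm tail is built on an axoneme, a ring of microtubule doublets moved by dynein motors and steadied by a central apparatus. Motile cilia of the brain line the ventricles on ependymal cells, whereas neurons carry a single non-motile primary cilium that receives signals. CatSper is the calcium channel of the sperm tail, and Catspere1 and Catspere2 are mouse genes for its epsilon auxiliary subunit. Dnah6 encodes an axonemal dynein heavy chain, the motor subunit of an inner arm. Cfap54 is needed to assemble part of the central apparatus, and Ulk4 is a predicted pseudokinase linked to ependymal cilia.

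The 4 batches had median totals of 3232 to 4931 RNA molecules (unique molecular identifiers, UMIs) per annotated nucleus, and 944 to 4416 nuclei were kept per mouse. Drd1+ neurons, the projection neurons of the direct pathway, numbered 15395 with a median of 6505 UMIs, and Drd2+ neurons of the indirect pathway 13203 with a median of 5953. Glial nuclei were shallower: oligodendrocytes had a median of 1640 UMIs and macrophages 1432. Among annotated nuclei, 1531 barcodes (2.75%) occurred in more than 1 batch. Levels are CPM, a mouse's summed counts in a cluster scaled to a total of 1000000 and by edgeR's TMM factors and given as mean ± SD over mice, unless they are called pooled. Because the mice of a strain were separate animals in separate batches, the spread covers animal, batch and counting together. Of the cell type markers, all 7 ependymal markers had their highest pooled level in Ependyma, all 5 oligodendrocyte markers in Oligodendrocyte and all 5 macrophage markers in Macrophage. Other names were less clear-cut: 2 of 5 Drd1+ markers were highest in Drd1+ neurons, their sum being highest in the second Drd1+ cluster, and 2 of 6 interneuron markers in Nxph1+ interneurons, their sum being highest in Sst+ interneurons. Of 4 mural cell markers 3 were highest in Mural cells, while their sum was highest in endothelium, at 2056 CPM against 1272 in Mural cells.

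Catspere1 (chr1:177808419-177962253) and Catspere2 (chr1:177983155-178172707) lie 20.9 kb apart on the plus strand of GRCm38.p6. Dnah6 (chr6:73017603-73222227) and Ulk4 (chr9:120964454-121286159) lie on the minus strand, and Cfap54 spans chr10:92775609-93083487. RefSeq promoter windows of 300 bases (250 before to 50 after the start, same build) were matched for 4 of the 5 genes, Cfap54 having none in the table. Catspere2 has 2 listed windows, of which the first is shown. The windows of Catspere2, Dnah6 and Ulk4 lie inside the gene spans given above. The Catspere1 and Catspere2 windows, at chr1:177808169-177808468 and chr1:177991148-177991447, are shown first because they are near copies. Of 299 aligned columns 277 were identical (92.6%). The windows reach only 50 bases past the start, and the transcripts were not compared. Whether reads of one gene were counted for the other was not tested, and their values should be read together. The Dnah6 window (chr6:73221582-73221881) and the Ulk4 window (chr9:121277123-121277422) are shown for the X-box, the binding motif of RFX factors that act on many cilium genes. Capitals mark the best match to it with at most 1 mismatch, searched on both strands. All 4 are written 5′ to 3′ in the direction of the gene.
Catspere1: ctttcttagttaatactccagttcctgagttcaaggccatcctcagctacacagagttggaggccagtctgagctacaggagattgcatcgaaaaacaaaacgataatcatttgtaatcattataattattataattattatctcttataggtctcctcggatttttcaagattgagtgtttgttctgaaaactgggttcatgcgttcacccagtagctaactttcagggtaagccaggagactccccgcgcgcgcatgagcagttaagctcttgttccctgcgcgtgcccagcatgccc
Catspere2: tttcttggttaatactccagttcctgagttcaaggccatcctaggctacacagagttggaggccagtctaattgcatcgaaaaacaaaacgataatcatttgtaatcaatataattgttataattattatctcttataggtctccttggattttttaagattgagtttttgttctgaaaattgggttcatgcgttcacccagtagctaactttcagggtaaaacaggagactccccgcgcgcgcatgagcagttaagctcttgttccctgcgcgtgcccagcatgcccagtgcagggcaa
Dnah6: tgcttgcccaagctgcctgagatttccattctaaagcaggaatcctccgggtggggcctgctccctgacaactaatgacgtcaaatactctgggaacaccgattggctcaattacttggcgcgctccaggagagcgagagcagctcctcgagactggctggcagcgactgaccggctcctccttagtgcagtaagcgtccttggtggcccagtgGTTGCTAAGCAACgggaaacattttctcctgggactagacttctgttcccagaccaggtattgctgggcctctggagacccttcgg
Ulk4: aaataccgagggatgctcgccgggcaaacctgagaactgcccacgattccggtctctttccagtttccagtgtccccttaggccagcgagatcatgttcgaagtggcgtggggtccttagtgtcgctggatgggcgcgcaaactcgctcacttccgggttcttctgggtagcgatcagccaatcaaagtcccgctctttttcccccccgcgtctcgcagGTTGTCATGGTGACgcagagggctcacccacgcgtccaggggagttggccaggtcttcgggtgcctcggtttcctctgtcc
A match of this kind occurred in 11.3% of the 32851 promoter windows, and an exact one in 1.53%. The search was chosen after the sequences had been read, and a match describes letters only. Of these 4 windows only that of Ulk4 overlapped an open chromatin peak of the authors' list (chr9:121277028-121278026), whereas 53.1% of all promoter windows did.

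Catspere1 was close to 0 in Drd1+ neurons of 3 strains and abundant in 4. In PWK/PhJ mice it stood at 146, 129.7, 144 and 149 CPM in batches 1 to 4 (142 ± 8.48, n = 4). A/J mice had 101, 92.8, 93.0 and 90.4 CPM (94.3 ± 4.58) and WSB/EiJ mice 95.5, 82.6, 75.5 and 80.7 CPM (83.6 ± 8.52). These 2 strains overlapped with each other, while all PWK/PhJ mice lay above all A/J mice. NZO/HlLtJ mice had 70.2, 64.5, 74.6 and 86.8 CPM (74.0 ± 9.47), overlapping with WSB/EiJ. CAST/EiJ stood alone between the groups at 9.98, 9.35, 10.6 and 12.4 CPM (10.6 ± 1.33). The remaining 3 strains could not be told apart: NOD/ShiLtJ had 0.589 ± 0.117 CPM, C57BL/6 0.481 ± 0.369 from 5 counts in all, and 129S1/SvImJ 0.282 ± 0.196 from 4 counts in all. Pooled over mice, the PWK/PhJ level was 505 times that of 129S1/SvImJ, with an exact 95% counting interval of 197 to 1854.

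Catspere2 kept a basal level in every strain and had its extremes in CAST/EiJ and PWK/PhJ. Drd1+ neurons of PWK/PhJ mice held 564, 504, 536 and 523 CPM (532 ± 25.01), and no mouse of another strain reached them. A/J mice followed with 392.3, 373, 381 and 348 CPM (374 ± 18.9), then WSB/EiJ with 388, 333, 310.0 and 359 CPM (348 ± 33.7), and those strains overlapped. NZO/HlLtJ had 276, 233, 275 and 269 CPM (263 ± 20.7). Below a gap of 0.96 on the log2 scale came C57BL/6 with 125, 132, 139 and 143 CPM (135 ± 8.21) and NOD/ShiLtJ with 126, 139, 123 and 130.3 CPM (129 ± 6.97), which overlapped. 129S1/SvImJ had 113, 94.2, 109 and 108 CPM (106 ± 8.11), below all NOD/ShiLtJ mice. CAST/EiJ was lowest with 47.0, 51.0, 64.6 and 58.9 CPM (55.4 ± 7.92), 0.94 below 129S1/SvImJ on the log2 scale. The 4 high strains are those in which Catspere1 was abundant, and CAST/EiJ, intermediate for Catspere1, was the lowest for Catspere2. Without batch 3 the largest gap moved and set CAST/EiJ apart from the other 7 strains.

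**Figure D1:**
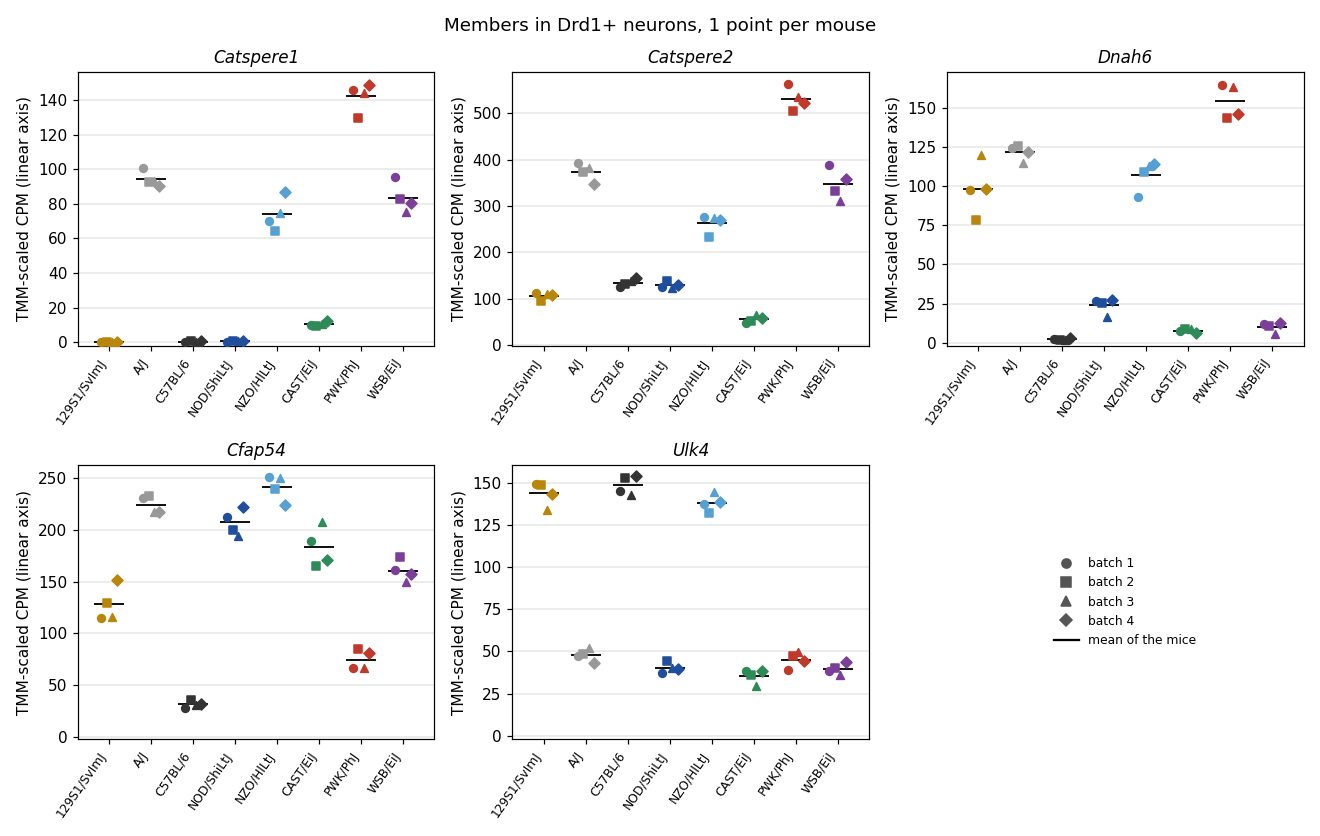
Level of the 5 genes in Drd1+ neurons in TMM-scaled CPM on linear axes from 0, with 1 point per mouse, 1 column per strain, a symbol per batch and a bar at the mean of the 4 mice. PWK/PhJ mice are highest for Catspere1, Catspere2 and Dnah6, C57BL/6 mice are lowest for Dnah6 and Cfap54, and 3 strains hold Ulk4 above 130 CPM while the others stay below 53.

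Dnah6 was high in 4 strains, lowest in C57BL/6 and at graded low levels in the other 3. PWK/PhJ mice had 165, 144, 163 and 146 CPM in Drd1+ neurons (155 ± 11.1), above every A/J mouse at 125, 126, 115 and 122 CPM (122 ± 4.91). NZO/HlLtJ mice had 93.1, 109, 113 and 114 CPM (107 ± 9.72) and 129S1/SvImJ mice 97.6, 78.4, 119.7 and 98.2 CPM (98.5 ± 16.9), and these strains overlapped. A gap of 2.03 on the log2 scale separated them from NOD/ShiLtJ, with 26.7, 25.1, 16.6 and 27.1 CPM (23.9 ± 4.95). WSB/EiJ had 11.9, 10.7, 5.43 and 12.9 CPM (10.2 ± 3.32) and overlapped with CAST/EiJ at 7.62, 9.03, 8.48 and 6.02 CPM (7.79 ± 1.32). C57BL/6 was lowest in all batches with 2.67, 1.98, 2.03 and 3.00 CPM (2.42 ± 0.497). The pooled PWK/PhJ level was 67.3 times that of C57BL/6 (exact 95% counting interval 47.0 to 100.1).

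Cfap54 set C57BL/6 apart from the other 7 strains. Its Drd1+ neurons held 28.3, 35.6, 31.3 and 32.1 CPM (31.8 ± 3.01), and PWK/PhJ was next with 66.3, 85.1, 67.0 and 80.8 CPM (74.8 ± 9.59). A step of 0.77 on the log2 scale led to 129S1/SvImJ with 115, 129.6, 116 and 152 CPM (128 ± 17.2). From there upward each strain overlapped with the next: WSB/EiJ at 160.5 ± 10.1, CAST/EiJ at 183 ± 19.3, NOD/ShiLtJ at 207 ± 12.9, A/J at 224 ± 8.43 and NZO/HlLtJ at 241 ± 12.5 CPM. NZO/HlLtJ mice had 251, 239.6, 249.8 and 224 CPM. The order differed from that of the CatSper genes and Dnah6: PWK/PhJ, highest for those, was second lowest for Cfap54.

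Ulk4 fell into 2 levels with nothing between. C57BL/6 mice had 145, 153, 143 and 154 CPM in Drd1+ neurons (149 ± 5.55), 129S1/SvImJ mice 149, 148, 134 and 144 CPM (144 ± 6.9) and NZO/HlLtJ mice 138, 132, 145 and 139 CPM (138 ± 5.18). A/J mice, the highest of the other 5 strains, had 47.2, 48.2, 52.0 and 43.1 CPM (47.6 ± 3.67), and the step between the sets was 1.53 on the log2 scale. CAST/EiJ mice were lowest on average with 38.1, 36.1, 29.7 and 38.5 CPM (35.6 ± 4.08). PWK/PhJ (45.0 ± 4.69), NOD/ShiLtJ (40.4 ± 2.8) and WSB/EiJ (39.5 ± 3.22) lay in the same band. Each strain overlapped with its neighbour in the order at all of the other 6 steps. The high set included C57BL/6, which was at or near the bottom for Catspere1, Dnah6 and Cfap54.

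For all 5 genes the high and low sets of strains, split at the largest gap, did not overlap in Drd1+ neurons and were separated within each of the 4 batches. The split was taken from the values of genes chosen for strain differences, which favours such separation. The share of all genes with sets that do not overlap was not counted. By the strain term, a different measure, 61.7% of the 13431 genes tested there were called. In Drd2+ neurons the sets of Dnah6, Cfap54 and Ulk4 were the same. CAST/EiJ joined the low set of Catspere1 there (6.07 ± 1.86 CPM) and stood alone as the low set of Catspere2 (49.98 ± 1.16 CPM), and 55.9% of genes were called. In the second Drd1+ cluster (1506 nuclei), where all 5 markers of eccentric projection neurons had their highest level, Dnah6 and Ulk4 again had the same sets. There Cfap54 was high in A/J (263 ± 29.7 CPM), NZO/HlLtJ (258 ± 43.2) and NOD/ShiLtJ (231 ± 13.5). Its largest and second largest gaps were both 0.804 on the log2 scale, so another split was equally well placed.

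The share of nuclei with at least 1 UMI was high and low in the same sets of strains. Drd1+ nuclei were thinned to 2000 UMIs and shallower nuclei were left out, while shares before thinning cover all nuclei. After thinning, 25.04% of PWK/PhJ nuclei held a Catspere1 UMI (55.6% before thinning), 16.3% of A/J, 15.4% of WSB/EiJ, 13.4% of NZO/HlLtJ and 2.02% of CAST/EiJ nuclei. Catspere2 was seen in 65.3% of thinned PWK/PhJ nuclei (92.9% before) and 10.1% of CAST/EiJ nuclei. For Dnah6 the share ran from 24.8% in PWK/PhJ (50.6% before thinning) to 0.54% in C57BL/6. Cfap54 ran from 36.4% in NZO/HlLtJ (69.2% before) to 5.86% in C57BL/6. Ulk4 was seen in 24.2% to 24.8% of nuclei of its 3 high strains (57.9% in C57BL/6 before thinning) and in 6.66% to 8.79% in the others. For comparison, oligodendrocytes were thinned to 1000 UMIs, again without shallower nuclei (median depth of all 1640). At that depth Drd1+ neurons of PWK/PhJ held a Dnah6 UMI in 13.9% of nuclei. Dnah6 was then found in at most 0.25% of oligodendrocytes of any strain, Cfap54 in at most 2.45%, Ulk4 in at most 1.50%, Catspere1 in 4.78% and Catspere2 in 23.9% of those of PWK/PhJ.

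Outside projection neurons the strain term was tested, since nuclei of those clusters had not been used to choose the genes, although they come from the same mice and pools. Catspere2 differed between strains in oligodendrocytes (adjusted p = 4.10e-44, edgeR's quasi-likelihood F test with 7 degrees of freedom and Benjamini-Hochberg adjustment), astrocytes (1.85e-33), Nxph1+ interneurons (1.96e-13) and endothelium (8.49e-06). Without the PWK/PhJ mice it was still called in all 4, with an adjusted p of 7.23e-17, 9.24e-18, 2.24e-09 and 7.68e-04 in the same order. The part of neuronal RNA in these calls was not tested. Catspere1 in astrocytes was at 91.5 pooled CPM in PWK/PhJ, 1.73 in 129S1/SvImJ and 1.45 in NOD/ShiLtJ. It passed the filter on low counts also without PWK/PhJ, but only through other strains with high levels, so no test is given. Of all genes tested, 34.8% were called in oligodendrocytes, 21.5% in astrocytes, 1.53% in Nxph1+ interneurons and 3.23% in endothelium. Catspere1 in oligodendrocytes, macrophages, Nxph1+ interneurons and endothelium, and Catspere2 in macrophages and Polydendrocyte/Oligodendrocyte, passed the filter on low counts only with the PWK/PhJ mice. They had to differ, and their values are given without a test (24.8% of genes were called in macrophages and 1.24% in Polydendrocyte/Oligodendrocyte).

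In oligodendrocytes, astrocytes and macrophages PWK/PhJ alone formed the high set of both CatSper genes. PWK/PhJ macrophages held Catspere2 at 521, 442, 436 and 528 CPM (482 ± 49.2) and Catspere1 at 143, 124, 97.0 and 138 CPM (125 ± 20.6), close in size to the neurons of that strain. In macrophages of NZO/HlLtJ Catspere2 was at 78.5 ± 12.7 CPM, of WSB/EiJ at 67.5 ± 8.63 and of A/J at 58.2 ± 11.6. Those 3 strains belonged to the high set in projection neurons, and their macrophages did not overlap with those of PWK/PhJ. Oligodendrocytes showed the same split: Catspere2 was 258, 281, 252 and 290.1 CPM in PWK/PhJ mice (270.2 ± 18.2), against 66.2 ± 14.8 in A/J and 9.45 ± 2.37 in C57BL/6. In astrocytes PWK/PhJ mice had 420.5, 375, 561 and 501 CPM (464 ± 82.7), and A/J mice 194 ± 23.3. In Nxph1+ interneurons, by contrast, A/J, NZO/HlLtJ, WSB/EiJ and PWK/PhJ formed the high set of both genes, as in the second Drd1+ cluster.

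**Figure D2:**
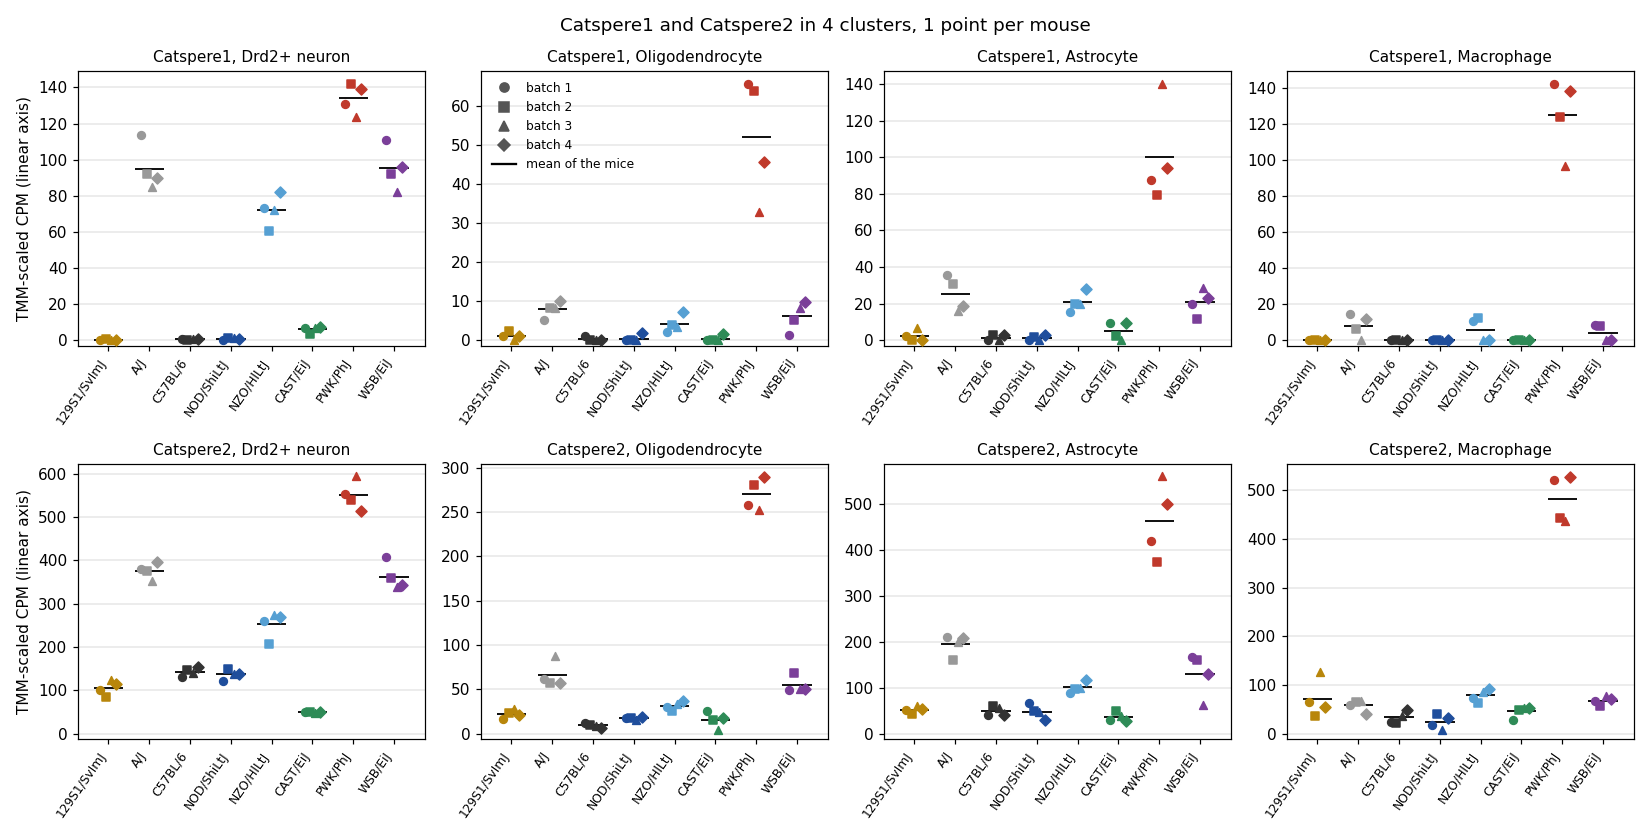
Catspere1 and Catspere2 in Drd2+ neurons, oligodendrocytes, astrocytes and macrophages in TMM-scaled CPM, with 1 point per mouse, 1 column per strain and a bar at the mean, on linear axes. PWK/PhJ mice stand above all others in each panel, at 252 to 290.1 CPM for Catspere2 in oligodendrocytes and 436 to 528 CPM in macrophages.

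RNA of projection neuron marker genes was found in all of these clusters, and its source was not tested. The highest marker stood at 424% of its projection neuron level in astrocytes and at 202% in Nxph1+ interneurons. Not every marker is therefore particular to projection neurons. The levels of 16 projection neuron markers were a median of 26.3% of their projection neuron level in oligodendrocytes (range 3.30% to 78.0%), 26.2% in macrophages and 48.9% in endothelium. Within PWK/PhJ macrophages that median was 25.7% and the highest marker stood at 89.1%, while Catspere1 stood at 87.9% and Catspere2 at 85.9% of their PWK/PhJ neuron level. In A/J macrophages the markers were at a median of 34.5% and at most 94.9%, Catspere1 at 8.44% and Catspere2 at 15.2%. In PWK/PhJ oligodendrocytes the markers were at a median of 31.3% and at most 77.2%, Catspere1 at 39.9% and Catspere2 at 48.4%. In oligodendrocytes of the other strains Catspere2 stood at 7.17% (C57BL/6) to 35.6% (CAST/EiJ). That was below the marker median of each strain except CAST/EiJ (26.8%). CAST/EiJ also differed elsewhere: in its macrophages Catspere2 was at 88.3% and the highest marker at 70.0%, and in its endothelium they were at 73.1% and 63.5%. The part of free neuronal RNA in the glial values was not tested beyond these ratios.

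Cfap54 differed between strains in astrocytes (adjusted p = 8.79e-10, edgeR). In oligodendrocytes Cfap54 was at most 12.5 CPM in 129S1/SvImJ and C57BL/6 mice. It passed the filter on low counts there only through strains with higher levels, so no test is given. Its lowest mean was in C57BL/6 and its highest in NZO/HlLtJ, as in neurons, with 2.6 ± 0.466 and 33.1 ± 7.03 CPM in oligodendrocytes and 18.4 ± 3.29 and 100.4 ± 23.3 CPM in astrocytes. In oligodendrocytes Cfap54 stood at 5.47% to 15.8% of its neuronal level over strains, below the projection neuron marker median of every strain (23.5% to 31.3%), and Ulk4 at 10.98% to 37.3%. In astrocytes the marker medians were 22.5% to 34.95%, and the highest marker stood at 82.9% in WSB/EiJ to 2555% in PWK/PhJ. Cfap54 stood at 19.4% to 61.5% there and Ulk4 at 18.6% to 58.8%. The part of neuronal RNA in these strain differences was not tested. The call in Nxph1+ interneurons (adjusted p = 0.00294) was lost without batch 1 (0.319) or 2 (0.126). In endothelium Cfap54 was at most 26.7 CPM in C57BL/6 mice and reached 150 CPM in other strains. It passed the filter on low counts there only through strains with higher levels, so no test is given. For Ulk4 in astrocytes 129S1/SvImJ, C57BL/6 and NZO/HlLtJ had the 3 highest means. Mice of the other 5 strains had at most 26.7 CPM. Ulk4 passed the filter on low counts there only through the high strains, so no test is given. The same held for Ulk4 in oligodendrocytes, where CAST/EiJ and NOD/ShiLtJ mice had at most 14.8 CPM and no mouse exceeded 25.3 CPM. In Nxph1+ interneurons its pooled level ran from 24.3 CPM in A/J to 102.7 in NZO/HlLtJ, and the filter on low counts favours genes high in some strains. It passed there (0.0437), but not without batch 1, 2 or 3 (0.0918 to 0.311), without the batch term (0.0529), with at least 20 nuclei (0.0736) or without PWK/PhJ (0.0611). In endothelium Ulk4 was not called (0.684), nor under any of the 9 alternatives. Dnah6 in endothelium was at most 13.3 CPM in C57BL/6 and CAST/EiJ mice and reached 228 CPM in other strains. It passed the filter on low counts only through strains with high levels, so no test is given. It was too low to be tested in oligodendrocytes, astrocytes and macrophages. In endothelium the 16 projection neuron markers stood at 35.6% to 64.2% of their neuronal level, and their part in the endothelium values was not tested.

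Over clusters, the cilium genes peaked in Ependyma, the 346 nuclei of the ciliated ventricular lining (median 2461 UMIs). Pooled over mice, Dnah6 was at 718 CPM there (exact 95% interval 671 to 768), at 90.2 in Drd2+ and 71.0 in Drd1+ neurons, and at 1.55 in oligodendrocytes. Fibroblasts held 0 counts of Dnah6, which allows up to 14.5 CPM. Cfap54 was at 1018 CPM in Ependyma (962 to 1077) and lowest in macrophages at 6.77. Ulk4 was at 289 CPM in Ependyma (259 to 321), 79.1 in Drd1+ neurons and 12.8 in oligodendrocytes. The next highest cluster for Dnah6 was Unknown_2 at 296 CPM, a group of 57 nuclei with choroid plexus RNA. For Catspere2 such pooled levels depend on how much of a cluster came from each strain, and the strains differ widely. Pooled, Catspere2 was highest in the second Drd1+ cluster (280.7 CPM), followed by Drd2+ (257.5) and Drd1+ neurons (253.0), and lowest in cluster Unknown (52.2) and oligodendrocytes (54.5). In all excitatory and interneuron clusters Catspere2 lay between 214 and 244 CPM, while Dnah6 lay between 2.61 and 12.4.

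**Figure D3:**
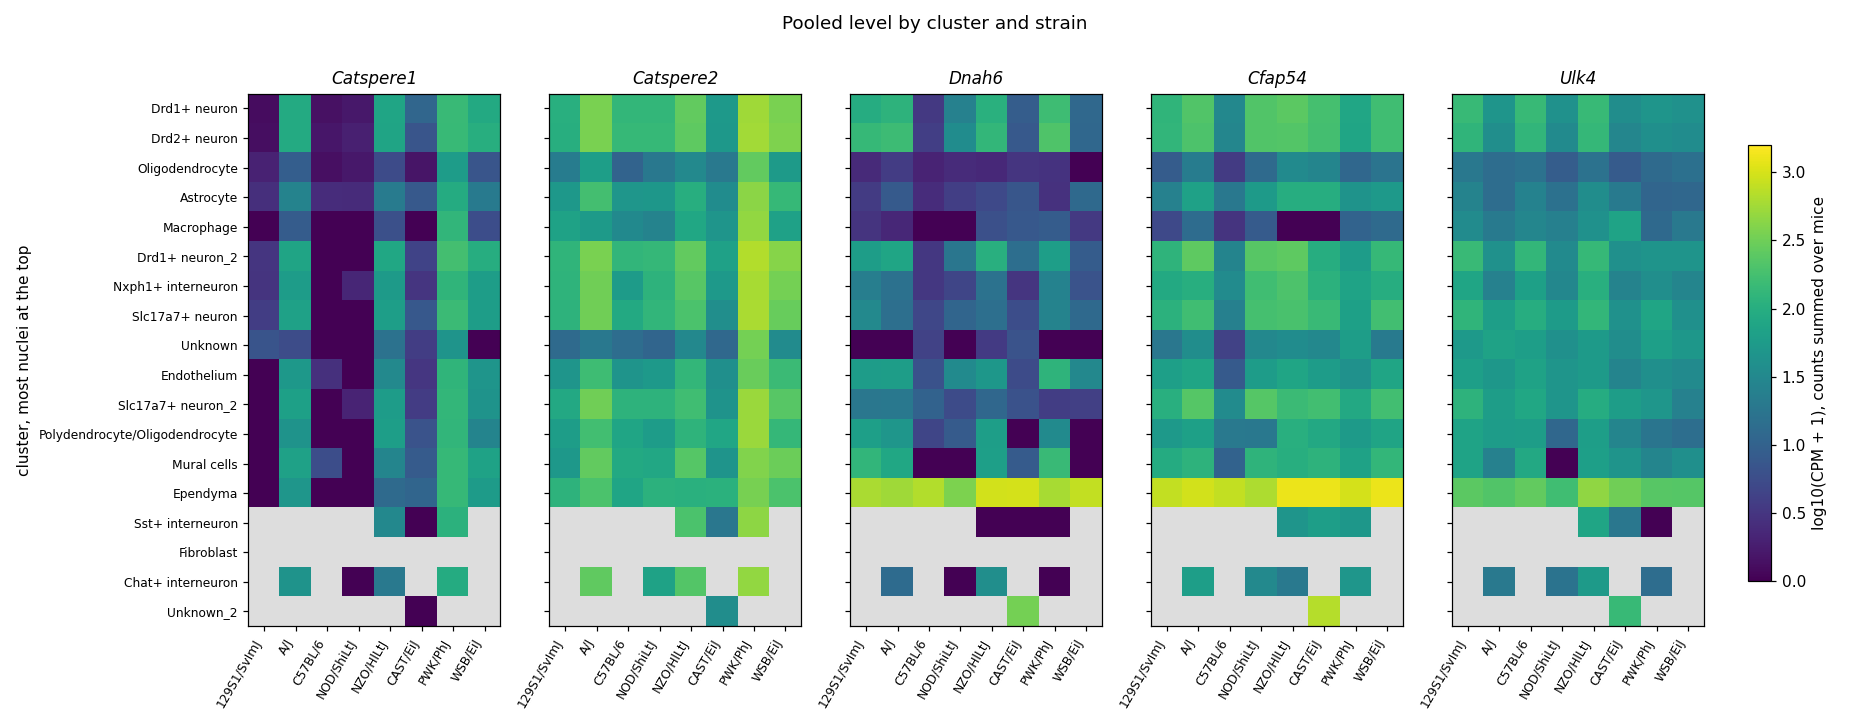
Pooled level of each gene in the 18 clusters (rows, most nuclei at the top) and 8 strains (columns), coloured by log10(CPM + 1). The 24 of 144 tiles in grey have fewer than 100000 UMIs in all. Ependyma forms a bright row for Dnah6, Cfap54 and Ulk4 in every strain, and PWK/PhJ a bright column for Catspere2 in nearly every cluster shown.

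The order of the strains for Dnah6 in Ependyma was not that of neurons. NOD/ShiLtJ, the highest of the 4 low strains in neurons, was lowest in Ependyma. Dnah6, at 2.42 CPM in Drd1+ neurons of C57BL/6, stood at 482, 880.2 and 979 CPM in Ependyma of 3 mice of that strain. CAST/EiJ mice had 1192, 832 and 799.8 CPM and WSB/EiJ mice 714, 1220 and 316 CPM, both low strains in neurons. PWK/PhJ mice, highest in neurons, had 517, 524 and 755 CPM, and NOD/ShiLtJ mice had 311, 452 and 367 CPM. The pooled PWK/PhJ to C57BL/6 ratio of Dnah6 was 0.897 in Ependyma (exact 95% counting interval 0.659 to 1.21), against 67.3 in Drd1+ neurons. Every Ependyma library lay above every Drd1+ library for Dnah6, and for Ulk4 above every Drd1+ library of its own strain.

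Cfap54 in Ependyma ranged from 143 to 1967 CPM over mice, and C57BL/6, at 30.4 pooled CPM in Drd1+ neurons, was at 805 (696 to 927). NZO/HlLtJ, highest in neurons, had 1290.3 pooled CPM in Ependyma, also the highest value, but by the mean of log2 levels over mice CAST/EiJ was highest and 129S1/SvImJ lowest. The pooled ratio of NZO/HlLtJ to C57BL/6 was 1.60 (exact 95% counting interval 1.34 to 1.92), against 8.07 (7.26 to 8.999) in Drd1+ neurons. For Ulk4 the pooled level was highest in NZO/HlLtJ at 463 CPM (383 to 554) and lowest in NOD/ShiLtJ at 162 (94.4 to 260), and CAST/EiJ at 317 (217 to 448) stood above C57BL/6 at 273 (211 to 347). Among 25 libraries of at least 5 nuclei, none of the 3 genes was called for strain by edgeR (adjusted p = 0.845 for Dnah6, 0.919 for Cfap54 and 0.736 for Ulk4). Their unadjusted p was 0.151, 0.273 and 0.0764. In that fit 10 of 1320 genes (0.758%) were called, and a p that misses the threshold does not show that the strains are alike. Catspere1 had few counts in Ependyma. PWK/PhJ, alone in its high set there, held 14 (137 pooled CPM, 75.0 to 230.2), A/J 8, WSB/EiJ 7, NZO/HlLtJ 3 and CAST/EiJ 1, and 129S1/SvImJ, C57BL/6 and NOD/ShiLtJ held 0.

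**Figure D4:**
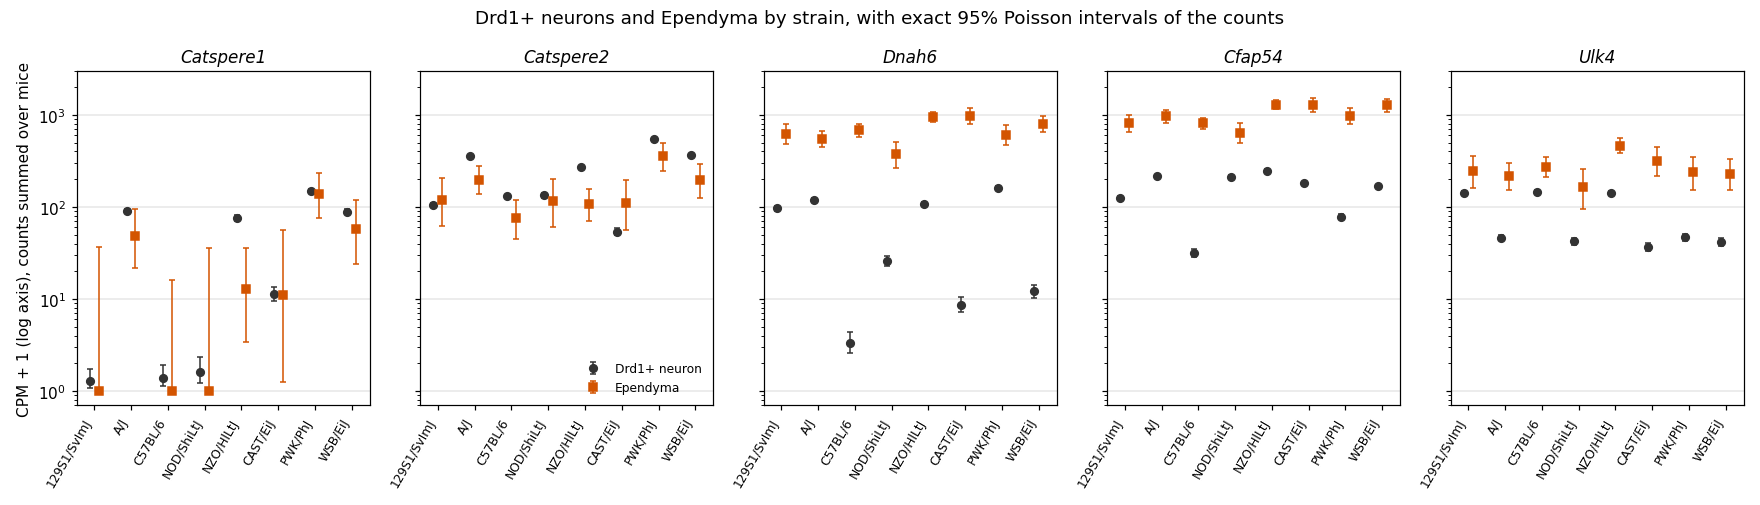
Pooled level of each strain in Drd1+ neurons and in Ependyma for the 5 genes, as CPM + 1 on a log axis, with exact 95% intervals that cover counting error only. Dnah6 spans 2.36 to 159 CPM in Drd1+ neurons and 372 to 971 CPM in Ependyma.

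Within mice, Drd2+ and Drd1+ neurons differed in Dnah6 and Ulk4. Dnah6 was higher in Drd2+ neurons by 0.40 ± 0.04 on the log2 scale (SE, adjusted p = 1.47e-11, edgeR with a term for mouse), in 24 of 32 mice and in all 4 mice of 4 strains. PWK/PhJ, for instance, had 199.9 ± 27.9 CPM in Drd2+ and 155 ± 11.1 in Drd1+ neurons. Ulk4 was lower by 0.18 ± 0.03 (estimate −0.18, adjusted p = 5.66e-07), in 30 of 32 mice and in all 4 mice of 6 strains. C57BL/6 had 129 ± 11.3 CPM in Drd2+ and 149 ± 5.55 in Drd1+ neurons. These shifts were small beside the strain differences. Of all genes 31.5% were called, 15.7% higher and 15.9% lower. Without the term for mouse, which leaves the strain differences in the error, the adjusted p was 0.685 for Dnah6 and 0.795 for Ulk4.

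The other 3 genes did not pass the same edgeR test, at 0.02 ± 0.04 for Catspere1 (adjusted p = 0.704), 0.04 ± 0.02 for Catspere2 (0.0818) and −0.03 ± 0.02 for Cfap54 (0.435). Catspere2 passed without batch 1 (0.0497). The 5 genes had to be expressed in projection neurons to be chosen, which favours lower values elsewhere, so the next values are a description without a test. Against Drd1+ neurons of the same mice, all 5 were lower in oligodendrocytes and astrocytes, where 86.3% and 81.7% of all genes were called. With TMM 42.6% of genes were lower and 43.7% higher in oligodendrocytes, and 40.0% and 41.7% in astrocytes. This balance depended on the scaling: with DESeq2's size factors 5580 genes were lower and 4225 higher in oligodendrocytes (4852 and 4979 with TMM), and 5364 and 3900 in astrocytes (4473 and 4672). The median log2 difference of all genes went from 0.03 to −0.15 and from 0.03 to −0.17, while the 5 genes stayed lower under both scalings. The log2 difference in oligodendrocytes was −5.51 ± 0.20 for Dnah6, −3.50 ± 0.12 for Cfap54, −2.84 ± 0.22 for Catspere1, −2.73 ± 0.11 for Ulk4 and −2.55 ± 0.15 for Catspere2. In astrocytes it was −3.84 ± 0.32, −1.72 ± 0.10, −1.59 ± 0.15, −2.23 ± 0.11 and −1.27 ± 0.09 in that order.

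**Figure D5:**
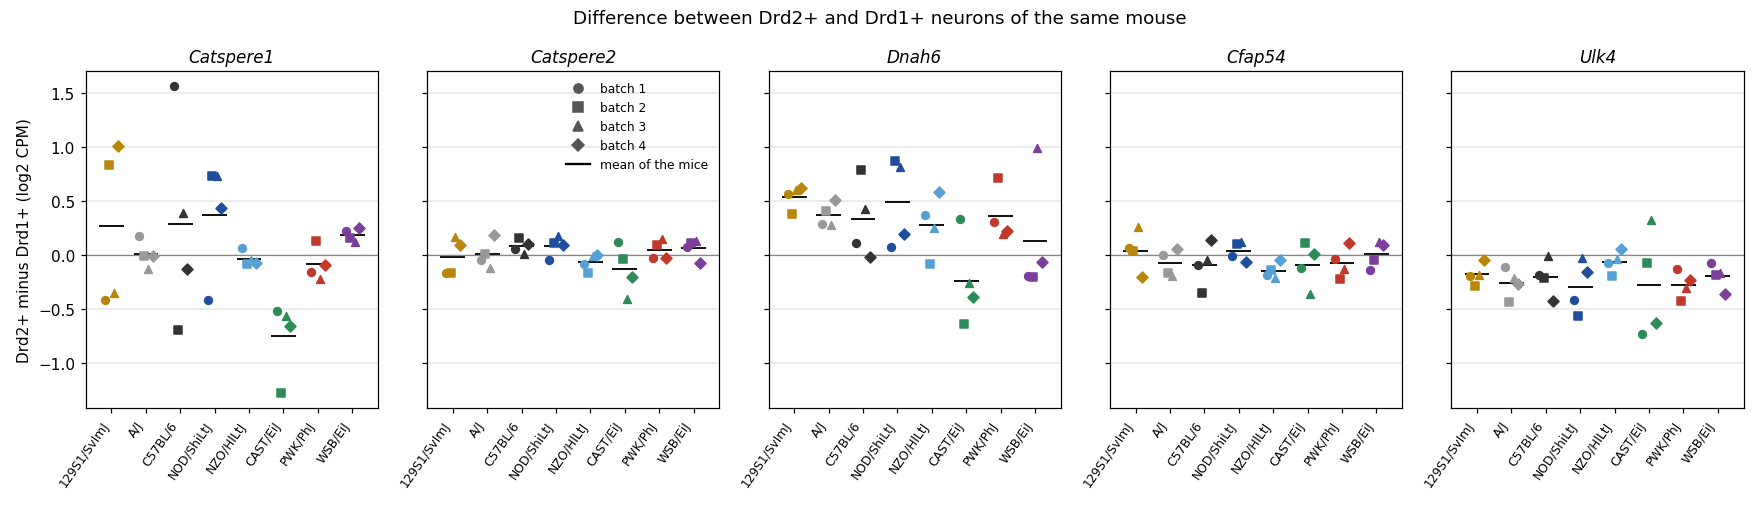
Difference of log2 CPM between Drd2+ and Drd1+ neurons of the same mouse, 1 point per mouse with a symbol per batch, by strain and gene, and a bar at the mean of the 4 mice. Dnah6 is higher in Drd2+ neurons in 24 of 32 mice and Ulk4 lower in 30 of 32.

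The other genes of these pathways were taken from 8 lists of 141 genes besides the 5, of which 138 were in the matrix. In Drd1+ neurons 95 were tested and 67 called for strain (70.5%), near the 61.7% of all genes, and in Drd2+ neurons 57 of 85 (67.1%, against 55.9%). In oligodendrocytes 19 of 46 were called (41.3%, against 34.8%) and in astrocytes 13 of 56 (23.2%, against 21.5%). Of the CatSper complex, 3 of 4 tested genes were called in Drd1+ neurons (5 were called without batch 1, where more passed the filter). Catsper2 (32.6 pooled CPM) was the exception (adjusted p = 0.0571, edgeR). The pore genes Catsper1 (0.029 CPM) and Catsper4 (0.163) were close to 0, and Catsper3 was at 2.08 CPM. Among dynein heavy chains 5 of 7 were called. Dnah6 was the only one of 15 above 10 CPM in Drd1+ neurons, and 12 of the 15 were highest in Ependyma, leaving out the small cluster Unknown_2.

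Of the dynein subunits, docking and assembly factors, 9 of 14 were called. Spag1, a dynein assembly factor, ran from 6.13 ± 1.50 CPM in PWK/PhJ to 20.8 ± 1.78 in A/J (adjusted p = 4.97e-10, edgeR). Ccdc39, which sets the spacing of the arms, ran from 20.5 ± 1.80 in PWK/PhJ to 32.1 ± 5.22 in 129S1/SvImJ (1.17e-04). Of the central apparatus and radial spoke genes, 12 of 15 were called. Cfap46 ran from 2.99 ± 0.487 CPM in C57BL/6 to 19.2 ± 4.07 in WSB/EiJ (9.49e-16), and Spag6l from 2.67 ± 1.15 in PWK/PhJ to 24.8 ± 5.52 in NZO/HlLtJ (1.76e-14). C57BL/6 and PWK/PhJ were also the lowest and second lowest strains for Cfap54. In this list 19 of 21 were highest in Ependyma, and in the list of other Cfap genes, where 6 of 9 were called, 17 of 19. Of those Cfap genes Cfap97 ran from 27.8 ± 2.97 CPM in A/J to 36.5 ± 5.81 in CAST/EiJ (0.00428).

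Of the regulators of motile ciliation 5 of 7 were called in Drd1+ neurons (3 without batch 1 or without the batch term). The factor Rfx3 ran from 381 ± 38.2 CPM in NOD/ShiLtJ to 464 ± 49.1 in NZO/HlLtJ (adjusted p = 0.0018, edgeR), and E2f4 was also lowest in NOD/ShiLtJ with 7.96 ± 2.27 CPM and highest in PWK/PhJ with 13.95 ± 2.92 (0.0197). Foxj1, the master regulator of motile cilia, was at 161 CPM in Ependyma and 0.586 in Drd1+ neurons. Only Ulk3 of 3 tested genes of the Ulk and Stk36 list was called, and it was lost without batch 1, 2 or 4. For the primary cilium and intraflagellar transport, 26 of 36 were called and 35 of 38 exceeded 10 CPM. Ttc8, a subunit of the BBSome, ran from 63.3 ± 7.01 CPM in 129S1/SvImJ to 124 ± 9.04 in A/J (3.19e-15), and the transport gene Wdr35 was highest in PWK/PhJ with 67.9 ± 4.21 CPM and lowest in NOD/ShiLtJ with 23.4 ± 7.37 (8.25e-15).

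The genes whose log2 levels were most like those of the 5 were sought among 9030 genes over the 32 Drd1+ libraries. These Pearson correlations are descriptions over libraries that share strains and batches. D930016D06Rik was nearest to both Catspere2 (r = 0.908) and Catspere1 (0.879), with means from 36.0 CPM in C57BL/6 to 80.4 in PWK/PhJ. Next came Ddx39b (0.816) and BC005561 (0.814) for Catspere1, and Sec22a (0.833) and BC005561 (0.831) for Catspere2. For Dnah6 they were Plpp1 (0.809), Gm19410 (0.769) and Gxylt1 (0.752). Ntn4, which encodes a netrin, was nearest to Cfap54 (0.910) and lies 0.56 Mb from it on chromosome 10. It ran from 0.056 CPM in C57BL/6 to 38.2 in NOD/ShiLtJ, and Crtac1 (0.845) and Mtus1 (0.807) followed. For Ulk4 the nearest were Nwd2 (0.797), Pdzrn4 (0.794) and Dennd4a (0.787).

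Among the 3 nearest genes on each side, 24 in all, 14 were tested and 7 were called for strain in Drd1+ neurons, a share not above the 61.7% of all genes. Desi2, 14.7 kb from Catspere2, ran from 133 ± 15.95 CPM in 129S1/SvImJ to 187 ± 17.7 in PWK/PhJ (adjusted p = 1.75e-06, edgeR), a far narrower range than that of Catspere2. Over the libraries Desi2 had a Pearson r of 0.699 with Catspere2 and 0.594 with Catspere1. Adss, 11.7 kb before Catspere1, ran from 43.4 to 58.4 CPM (0.0339), and Hnrnpu, 148.4 kb beyond Catspere2, from 182 ± 14.1 in WSB/EiJ to 238 ± 6.57 in CAST/EiJ (3.94e-05). Pearson r was 0.086 for Adss with Catspere1 and −0.533 for Hnrnpu with Catspere2. Suclg1, 26.3 kb from Dnah6, ran from 32.5 CPM in WSB/EiJ to 45.6 in C57BL/6 (0.0037), and C57BL/6 was the lowest strain for Dnah6. Over the libraries its Pearson r with Dnah6 was only −0.089. Next to Cfap54, Cdk17 (7.94e-04) and Elk3 (1.50e-05) were lowest in NZO/HlLtJ, where Cfap54 was highest. Their Pearson r with Cfap54 over the libraries was −0.30 for Cdk17 and 0.085 for Elk3. Ctnnb1, the beta-catenin gene 3.9 kb from Ulk4, was not called (0.365), nor were Cox20 (0.163), Kcmf1 (0.338), Tmsb10 (0.0775), Nedd1 (0.674), Trak1 (0.161) and Cck (0.659). Gm34655 (chr9:121277747-121280721) lies within the span of Ulk4 and ran from 0.687 ± 0.509 CPM in PWK/PhJ to 6.90 ± 3.00 in 129S1/SvImJ (1.80e-09). Its Pearson r with Ulk4 was 0.716. Whether counting used the strand is not given in the sources used here, so reads of Gm34655 and Ulk4 cannot be told apart, nor those of Dnah6 and Gm20560 (0.226 CPM), which overlaps it.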

How the data were processed

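RNA of 4 batches was sequenced by single-nucleus multiome. Per the submitters' processing notes, bcl2fastq 2.20.0.422 and Cell Ranger ARC 2.0.0 were used, with builds mm10 and GRCm38. The authors deposited raw UMI counts per gene and nucleus and a table of nuclei with strain, cluster and filters (over 200 and under 7500 genes, under 15% mitochondrial counts, doublets marked by DoubletFinder). The 55672 annotated nuclei were used.

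Counts were summed per mouse and cluster (at least 10 nuclei). The 9 clusters with at least 3 such mice of every strain were tested with edgeR 4.0.16 in R 4.3.3 (TMM, filterByExpr, robust quasi-likelihood, terms for batch and strain), Benjamini-Hochberg adjusted per cluster and called under 0.05. Drd2+ neurons, oligodendrocytes and astrocytes were compared with Drd1+ neurons with a term for mouse. Tables were made with Python 3.11.15. Batch numbers pair the mice because the labels place 1 mouse of each strain in each batch. The tests were tested on simulated data. Intervals cover counting error only.

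The 5 genes, the lists and the tests were chosen with earlier results of these data known. Named genes are the 5, the 2 genes with the largest F per list among called genes of at least 10 CPM, the 3 most alike per gene, the tested neighbours and markers. Ulk3, Foxj1 and the CatSper pore genes were added after their values were seen. Alternatives were DESeq2 1.42.0, its size factors, no filter, no batch or mouse term, at least 20 nuclei, each batch left out, and, added after seeing the data, no PWK/PhJ mice and Ependyma with at least 5 nuclei.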

Additional observations from a re-analysis of the deposited data

Results flagged for a closer look

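Among 80 groups of 4 mice (5 genes, 8 strains, Drd1+ and Drd2+ neurons), 3 had a mouse far from the others of its strain, and chance alone marks about 1 in 20 such groups. Catspere2 in Drd1+ neurons of the NZO/HlLtJ mouse of batch 2 was 233 CPM, against 269 to 276 in the other 3. Dnah6 in Drd2+ neurons of the C57BL/6 mouse of batch 2 was 3.69 CPM, from 8 counts, against 2.77 to 2.80 in the others. Dnah6 in Drd2+ neurons of the NOD/ShiLtJ mouse of batch 2 was 46.2 CPM, against 28.1 to 30.9. None of these values moves its strain to the other set.

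For the CatSper genes a pair of strains moved in opposite directions between Drd2+ and Drd1+ neurons in all 4 mice each. Catspere1 was higher in Drd2+ neurons of WSB/EiJ by 0.19 on the log2 scale and lower in CAST/EiJ, at −0.75. For Catspere2 the difference was 0.0825 in C57BL/6 and −0.0638 in NZO/HlLtJ. These differences between strains were not tested.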

How the results depend on the processing

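None of the log2 differences of the 5 genes against Drd1+ neurons changed direction under an alternative, and direction was not checked for other values. The balance of all genes called against Drd1+ neurons did: with no filter 6366 were higher and 9038 lower in oligodendrocytes and 6183 and 8348 in astrocytes, and with DESeq2 4232 and 5601, and 3909 and 5378. For tests of the 5 genes and counts of calls per list, 366 comparisons with an alternative held. That number includes comparisons given above without a test, whose outcome the filter or the choice of the genes favoured, which limits what it shows. Tests of the 5 genes, including those not given above, lost a call in 26 and gained one in 1. Counts per list moved by over 1.5 times in 6, of which 3 are the loss of Ulk3. For counts, sets, spans and shares 259 held and 36 moved. With 1 batch left out, genes called for strain ranged over 1138 to 1675 in astrocytes (1767 with all), 628 to 780 in the second Drd1+ cluster (958), 24 to 46 in Nxph1+ interneurons (61), 63 to 138 in endothelium (161) and 6 to 58 in Polydendrocyte/Oligodendrocyte (26). The high set of Catspere2 in Drd1+ neurons then held 4 to 7 strains. With no filter, calls rose to 468 in Nxph1+ interneurons, 527 in endothelium and 221 in Polydendrocyte/Oligodendrocyte, and to 15404 and 14531 for oligodendrocytes and astrocytes against Drd1+ neurons (9831 and 9145). DESeq2 called 109 in Nxph1+ interneurons and 75 in Polydendrocyte/Oligodendrocyte. Leaving out PWK/PhJ gave 30 and 13. Without the batch block, that is without the pairing, endothelium had 71 calls, and without the mouse block Drd2+ against Drd1+ had 1407 (3764 with it). With nuclei of the 10th to 90th percentile of UMIs, the span of strain means in Drd2+ neurons was 3.34 for Catspere2 (3.44) and 6.06 for Dnah6 (5.72). Shares of nuclei depend on depth by construction, and shares not thinned also cover the shallower nuclei. Thinned to 1000 UMIs and not thinned, they were 13.5% and 55.6% for Catspere1, 41.8% and 92.9% for Catspere2 and 13.9% and 50.6% for Dnah6 in PWK/PhJ, 20.8% and 69.2% for Cfap54 in NZO/HlLtJ and 13.4% and 57.9% for Ulk4 in C57BL/6. The cause of the other shifts was not tested. Ependyma libraries hold few nuclei, which limits the precision of their values.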
